A study of Homo sapiens with 2 samples.

Results

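NEAT1 and MALAT1, the long noncoding RNAs that stay in the nucleus, and 5 genes for nuclear RNA-binding proteins (NONO, SFPQ, PSPC1, RBM14 and MATR3) were followed in A375 cells after knockdown of THOC2. A375 is a human melanoma cell line, and THOC2 is a subunit of the THO complex, which couples transcription to the export of mRNA. Every probe that the deposited table assigns to 1 of these 7 gene symbols was taken, which gave 18 of the 58199 probes on the array. The rule used the gene symbol alone and no measured value. RNA of A375 cells transfected with a control siRNA without an intended target (NC) and of A375 cells transfected with an siRNA against THOC2 (si-THOC2) was harvested at 48 h and hybridized to 1 array each. In both samples the source field contradicts the title and the description as to which siRNA was used, and here the array is named after its title and description. The methods list several THOC2 siRNAs, and which of them was used for the array is not given in the sources used here.

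Paraspeckles are nuclear bodies that form on NEAT1 RNA. NONO, SFPQ and PSPC1 are related RNA-binding proteins (the DBHS family) that coat this RNA, RBM14 is a paraspeckle protein needed to assemble the body, and MATR3 is a nuclear matrix protein that binds RNA together with NONO and SFPQ. NEAT1 is made in a short polyadenylated form and a long form that begins at the same start site, and the long form is the scaffold of the body. MALAT1 lies next to NEAT1 on the same chromosome and collects in nuclear speckles, the neighbouring bodies rich in splicing factors. Paraspeckles are known to hold back RNAs with inverted repeats in the nucleus. Whole-cell total RNA was measured here, so the arrays give amounts of RNA and no information on its place in the cell.

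The noncoding RNA probes are shown first with their positions, since the probes of NEAT1 and those of MALAT1 did not read alike. The probes also differ in signal, and the part of position in these readings was not tested. All are on the plus strand of chromosome 11 at 11q13.1 (hg19, deposited annotation), are 60 bases long, and are written 5′ to 3′. Capitals mark the 19 bases that the first pair of NEAT1 probes share. The MIR612 probe belongs to no member, but RefSeq (GRCh38.p14) places MIR612, a microRNA gene, inside the 22743 bases of NEAT1, and the deposited annotation gives it the same Ensembl transcript (ENST00000501122) as the third NEAT1 probe.
NEAT1 probe 1, chr11:65192168-65192227: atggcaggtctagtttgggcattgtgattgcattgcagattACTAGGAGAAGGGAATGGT
NEAT1 probe 2, chr11:65192209-65192268: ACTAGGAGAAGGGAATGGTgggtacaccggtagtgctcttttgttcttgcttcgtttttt
NEAT1 probe 3, chr11:65193885-65193944: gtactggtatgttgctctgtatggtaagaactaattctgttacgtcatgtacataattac
MIR612 probe, chr11:65211969-65212028: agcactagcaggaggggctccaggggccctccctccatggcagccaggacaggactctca
MALAT1 probe 1, chr11:65268619-65268678: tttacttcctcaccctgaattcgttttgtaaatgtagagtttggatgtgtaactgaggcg
MALAT1 probe 2, chr11:65270980-65271039: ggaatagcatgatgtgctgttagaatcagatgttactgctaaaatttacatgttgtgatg
MALAT1 probe 3, chr11:65273714-65273773: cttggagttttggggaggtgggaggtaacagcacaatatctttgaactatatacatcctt
MALAT1 probe 4, chr11:65273871-65273930: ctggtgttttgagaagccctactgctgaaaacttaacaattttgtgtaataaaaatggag

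A signal below is the scanner software's processed signal of a probe, an intensity after background subtraction, and in each pair of signals the NC array comes first. A log2 difference is si-THOC2 minus NC after the log2 signal was reduced by the 75th percentile of its own array, which was 6.62 for NC and 6.31 for si-THOC2. Because of this step, a probe whose raw signal was slightly lower with si-THOC2 can have a log2 difference above 0. A probe was compared if the software marked it well above background on at least 1 array, which held for 25345 probes, and 22207 of them were marked on both. There was 1 array per condition and no replicate, so no test was possible, the spread between cultures is unknown, and all differences are between these 2 arrays. Errors given are within-array errors. The technical SD is the median SD of the log2 difference over probes printed on 5 or more spots, at like signal, and the software's SD is the error that the scanner software assigned to each spot, carried to the log2 difference. Each member probe was printed on 1 spot. THOC2 itself had signals of 136 (NC) and 40.9 (si-THOC2) at one probe and of 67.3 and 35.1 at the other, log2 differences of -1.42 and -0.63. Of the 9 markers fixed for a melanoma line, 6 were measured on both arrays, and of the pigment genes among them DCT was measured on both (signals of 18.02 and 24.4), MLANA on the si-THOC2 array only (3.12 and 18.7), and PMEL and TYR on neither. The others measured on both had mean log2 differences of 0.06 (SOX10), -0.03 (MITF), -0.10 (S100A1), -0.22 (AXL) and -0.66 (S100B). Of the epithelial, immune and endothelial markers, those on both arrays were KRT8 (-0.03), KRT18 (0.43), PTPRC (0.39), CD3E (0.87) and PECAM1 (0.43). DCN, a fibroblast marker, went from a signal of 62.4 to 149, LUM and COL1A1 were not well above background on either array, and the part of DCN-expressing cells in the values below was not tested.

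No member changed by 2-fold. Of the 17 member probes compared, 0 were lower and 0 were higher by 2-fold or more, where 3.33% of all compared probes were lower and 2.93% higher by that fold. Of the 16 member probes well above background on both arrays, again none passed, beside 0.365% lower and 0.829% higher among all such probes. At these shares, none among so few probes is close to the background, and the count says little about the members. Their log2 differences ran from -0.47 to 0.52, with 6 below 0 and 10 above. The noncoding RNAs held 4 of their 7 probes below 0, and the protein genes held 7 of 9 above 0. The median over all probes on both arrays was itself above 0, at 0.04, and 43.2% of genes with such a probe were below 0. Beside that share, these counts of few probes do not set the noncoding RNAs and the protein genes apart. The difference exceeded the technical SD at 15 of the 16 probes, but the software's SD (0.204 to 0.374) at only 8, and 2 times the software's SD at 3. Set against the spread of all probes of like signal (SD 0.198 to 0.412), 7 of the 16 lay beyond 1 SD from the median of those probes and 2 beyond 2 SD, namely the first NONO probe and the third NEAT1 probe.

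**Figure D1:**
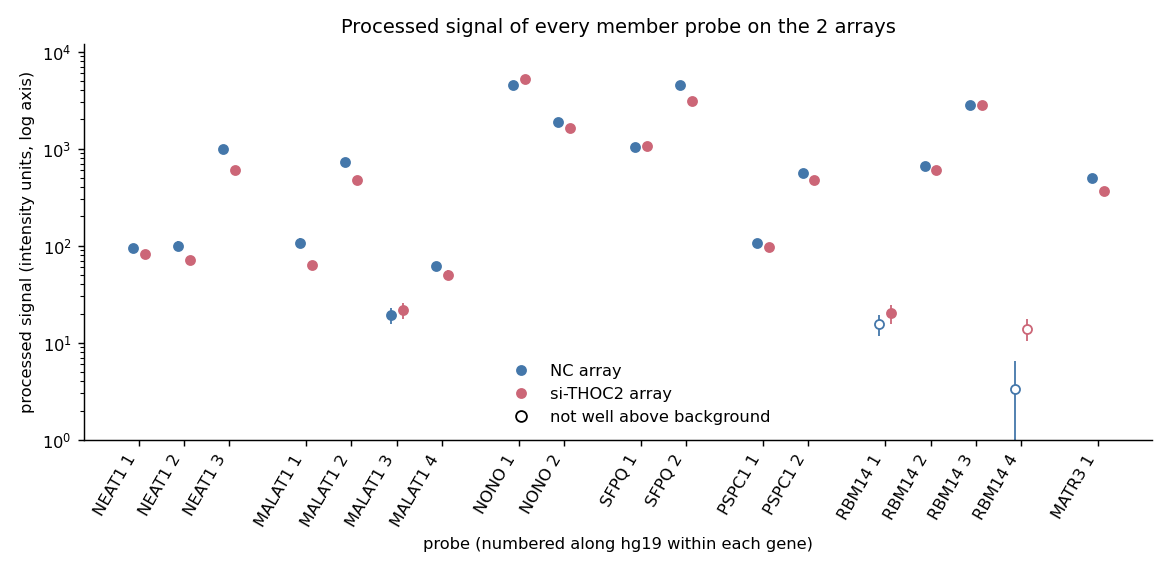
Processed signal (intensity units, log axis) of the 18 member probes on the NC array (blue) and the si-THOC2 array (red), with bars for the scanner software's error and open circles for signals not well above background. The 2 arrays lie close together at every probe well above background on both, and the fourth RBM14 probe is open on both arrays.

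At the NEAT1 locus, the 3 NEAT1 probes did not move alike. The first had signals of 95.3 with NC and 82.5 after si-THOC2, a log2 difference of 0.10 (technical SD 0.10, software's SD 0.22). The second, which begins 41 bases further on, had 99.98 and 71.0, a difference of -0.18 (technical SD 0.10, software's SD 0.22). These neighbours share 19 bases, as printed above, and their differences lay on either side of 0, each within the software's SD.

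The third NEAT1 probe, 1717 bases from the first, was the only one of the 3 whose difference passed both errors. Its signal was 1003 with NC and 601 after si-THOC2, a log2 difference of -0.43 (technical SD 0.05, software's SD 0.20), or 1.35-fold lower. The difference was 8.22 times the technical SD, and it lay 2.14 SD below the median of all probes of like signal. The 3 probes spanned 0.53 on the log2 scale, and among the 551 genes with 3 probes on both arrays the median span was 0.30 and 22.5% spanned more than NEAT1 (9.26% under normexp background correction). The gene mean was -0.17 (technical SD 0.05), whereas the median over all 17514 genes compared was 0.02.

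The MIR612 probe, 19801 bases from the first NEAT1 probe, reads a stretch far beyond the other probes. Its signal was 174 with NC and 146 after si-THOC2, a log2 difference of 0.06 (technical SD 0.10, software's SD 0.21), so the arrays did not differ there beyond either error. Hence the reading far along the gene and the third NEAT1 probe differed from each other by more than either software's SD. No combined error of this comparison was computed. The deposited annotation puts both on 1 transcript, but which forms of NEAT1 each probe reads was not tested. A further probe described as NEAT1 but carrying no symbol, at chr11:65194123-65194182, had signals of 4.66 and 3.25 and was not well above background on either array. The same held for a probe on the opposite strand at chr11:65193413-65193472, with signals of 3.10 and 3.33.

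Along MALAT1, the probes nearer the start were lower and those nearer the end were not. The first probe had signals of 108 with NC and 62.9 after si-THOC2, a log2 difference of -0.47 (technical SD 0.10, software's SD 0.22). The second, 2361 bases on, had 736 and 475, a difference of -0.32 (technical SD 0.05, software's SD 0.20). Both were lower with si-THOC2 by more than either within-array error, by 1.38-fold and 1.25-fold.

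The third MALAT1 probe, 5095 bases from the first, was dim, with a signal of 19.1 on the NC array and 21.5 on the si-THOC2 array. Its log2 difference was 0.48 (technical SD 0.17, software's SD 0.37), and under normexp background correction it was 0.09. The fourth, 5252 bases from the first, had signals of 61.5 and 49.96 and a log2 difference of 0.01 (technical SD 0.17, software's SD 0.24). The bright second probe and the third, dim probe thus lay on opposite sides of 0, and the last did not differ between the arrays beyond its error.

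The 4 MALAT1 probes spanned 0.95 on the log2 scale. Of the 118 genes with 4 probes on both arrays, 5.08% spanned more, and their median span was 0.49. Under normexp background correction, which here includes an added offset and quantile normalization, the MALAT1 probes spanned 0.39, and 22.9% of the same genes spanned more. The span includes the third probe, a dim one, whose error is the largest among the members measured on both arrays. The gene mean of MALAT1 was -0.07 (technical SD 0.07, software's SD 0.13), and with the median of its probes in place of the mean it was -0.16. A probe on the opposite strand inside the MALAT1 locus, at chr11:65269772-65269831, had signals of 13.3 and 10.2 and was not well above background on either array.

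**Figure D2:**
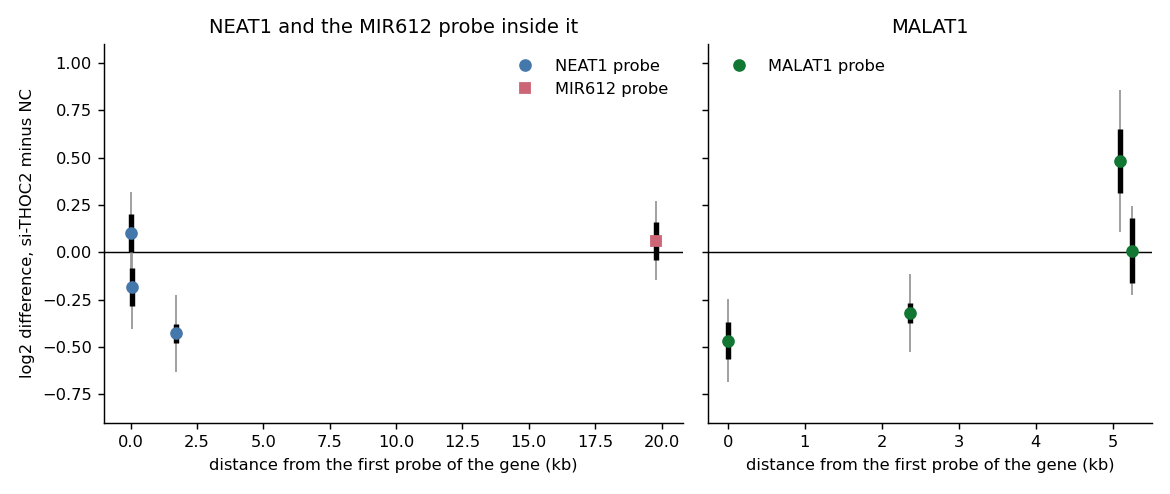
Log2 difference (si-THOC2 minus NC) against the distance in kb from the first probe of NEAT1 (left, with the MIR612 probe as a square) and of MALAT1 (right), with thick bars for the technical SD and thin bars for the scanner software's SD. The third NEAT1 probe at -0.43 and the first 2 MALAT1 probes at -0.47 and -0.32 lie below 0 beyond both bars, while the MIR612 probe at 0.06 and the last MALAT1 probe at 0.01 do not.

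The protein-coding genes measured around both RNAs all lay above 0, whereas the NEAT1 and MALAT1 probes lay on both sides of 0. The 5 genes measured there had 7 probes well above background on both arrays, and all 7 had log2 differences above 0, from 0.11 to 0.39. FRMD8, a FERM domain protein encoded just before NEAT1, had signals of 6465 with NC and 5625 with si-THOC2 at its bright probe. The log2 difference there was 0.11, within the software's SD of 0.20. The other FRMD8 probe had 37.1 and 39.4, a difference of 0.39 (technical SD 0.17). LTBP3, which encodes a protein that binds latent TGF-beta, had 1617 and 1699 (0.38, software's SD 0.20). EHBP1L1 had 1145 and 1065 (0.21, about the size of the software's SD of 0.20). The median of these 5 genes was 0.25, beside 0.04 over all genes with a probe on both arrays, of which 43.2% were below 0. It was 0.13 under normexp background correction.

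Of the DBHS genes, which encode the core paraspeckle proteins, NONO had the probe with the highest log2 difference among the members on both arrays. Its first probe (chromosome X at Xq13.1, 70519825 to 70519884, NM_007363) had signals of 4550 with NC and 5281 after si-THOC2, a log2 difference of 0.52 (technical SD 0.05, software's SD 0.20). It lay 2.17 SD above the median of the probes of like signal. The second NONO probe (70520608 to 70520667, same RefSeq transcript) had 1867 and 1627, a log2 difference of 0.11 (technical SD 0.05, software's SD 0.20).

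Both NONO probes are assigned to 1 RefSeq transcript and yet were 0.41 apart. Of the 887 genes with 2 probes that were both bright (log2 signal over 8 on the NC array), 5.86% were further apart, and 11.5% were with differences centred by blocks of the array. Among all 3011 genes with 2 probes on both arrays, 18.2% were further apart. The NONO mean was 0.32 (technical SD 0.04, software's SD 0.14), and it stayed above 0 in all 10 alternatives, from 0.25 to 0.32. Alternatives that alter only the detection filter, dim signals or the averaging of probes could not change it. The authors' values (0.2469) nearly repeated quantile normalization (0.2471), and median scaling (0.3168) hardly moved it.

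SFPQ, the partner of NONO, gave opposite readings at its 2 probes. One probe (chromosome 1 at 1p34.3, minus strand, 35641986 to 35642045, XM_005271111 and ENST00000466213) had signals of 1030 with NC and 1065 after si-THOC2, a log2 difference of 0.36 (technical SD 0.05, software's SD 0.20). The other (35649241 to 35649300, NM_005066 and ENST00000357214) had 4569 and 3111, a difference of -0.24 with the same errors. The deposited annotation thus gives the probes different RefSeq and Ensembl transcripts, and one was higher and the other lower with si-THOC2, each by more than the software's SD.

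The SFPQ probes lay 0.60 apart, and 1.24% of the 887 genes with bright probe pairs lay further apart, as did 8.17% of all 3011 genes with 2 probes on both arrays. Their mean of 0.06 hides this, and it was below 0 in 4 of the 10 alternatives, down to -0.01. Among these, quantile normalization (-0.0055) and the authors' values (-0.0064) nearly repeat each other. As for NONO, changes to the detection filter, dim signals or the averaging of probes could not move this mean. Under every alternative run, the first of these probes stayed above 0 and the second below.

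PSPC1, the last DBHS gene, differed little between the arrays. Its probes lie on the minus strand of chromosome 13 at 13q12.11. The first (20276675 to 20276734) had signals of 105 with NC and 96.0 after si-THOC2, a log2 difference of 0.18 (technical SD 0.10, software's SD 0.21), and the second (20315706 to 20315765) had 562 and 471, a difference of 0.06 (technical SD 0.05, software's SD 0.20). Neither difference passed the software's SD, and the probes lay 0.12 apart, less than in 61.9% of the 3011 genes with 2 probes on both arrays.

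RBM14 was higher with si-THOC2 at both of its well measured probes, which lie on chromosome 11 at 11q13.2. The probe from 66394290 to 66394349 had signals of 659 with NC and 609 after si-THOC2, a log2 difference of 0.20 (technical SD 0.05, software's SD 0.20), and the probe from 66394693 to 66394752 had 2840 and 2822, a difference of 0.30 with the same errors. The second of these passed the software's SD. Both raw signals were slightly lower with si-THOC2, and the differences are above 0 only relative to the 75th percentile of each array.

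The other RBM14 probes were dim. The probe from 66391379 to 66391438 had signals of 15.5 and 20.0 and was well above background on the si-THOC2 array only. After scaling it was 1.60-fold higher there (log2 difference 0.68, software's SD 0.47), but 1.11-fold higher under normexp background correction (log2 difference 0.16). The 1.60-fold is the measured ratio and no lower limit. The probe from 66396612 to 66396671 had 3.33 and 14.0 and was well above background on neither array, so no fold is given. The RBM14 mean was 0.39 over the 3 compared probes and 0.25 over the pair on both arrays, and it ran from 0.17 with normexp background correction to 0.89 with no detection filter. The array also carries a separate symbol for the read-through transcript RBM14-RBM4, which is no member.

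MATR3 had 1 probe (chromosome 5 at 5q31.2, 138665300 to 138665359, NM_199189). Its signal was 504 with NC and 366 after si-THOC2, a log2 difference of -0.15 (technical SD 0.05, software's SD 0.20). It was lower by more than the technical SD and by less than the software's SD, and it was below 0 in all 10 alternatives. Some of these (the detection filter, dim signals and the averaging of probes) could not change the value of a single probe measured on both arrays.

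**Figure D3:**
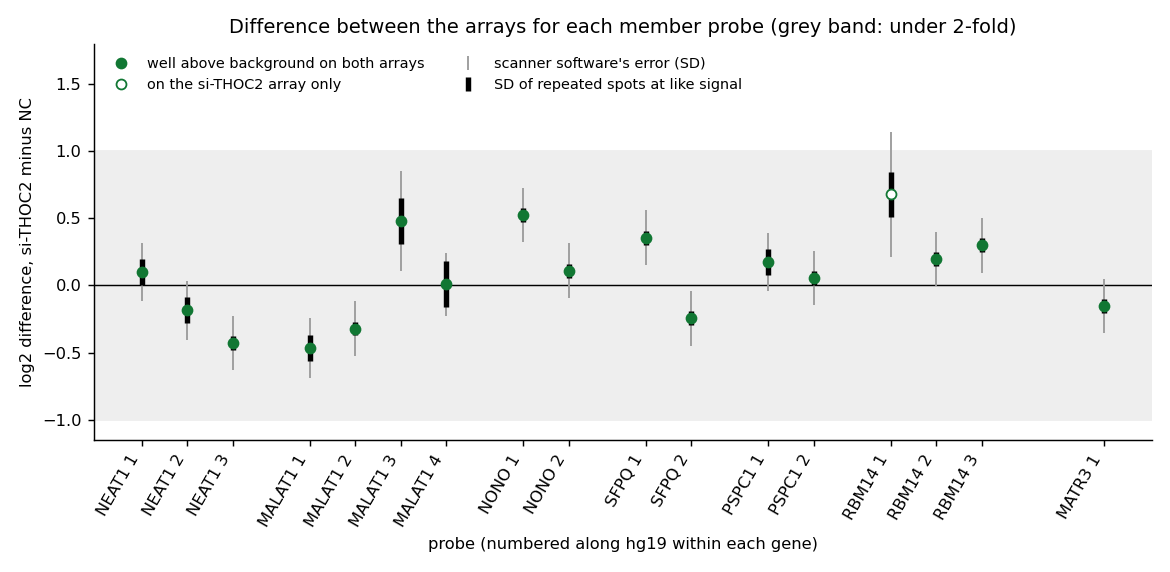
Log2 difference (si-THOC2 minus NC) of the 17 compared member probes, with thick bars for the technical SD, thin bars for the scanner software's SD and a grey band for changes under 2-fold. Every point lies inside the band, the NEAT1 and MALAT1 probes spread on both sides of 0, and the SFPQ pair lies on opposite sides.

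Over the 7 genes, 3 means were below 0 (NEAT1, MALAT1 and MATR3) and 4 above, which is 42.9% below 0. All 7 genes had a probe on both arrays, and of all such genes 43.2% were below 0. The median of the 7 means was 0.06, beside 0.04 over those genes. That median is the value of SFPQ and shares its change of sign between alternatives.

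The known partners of the members were then set beside them. Of 29 other paraspeckle proteins, 28 were measured, 8 were below 0 (28.6%, beside 43.2% of all genes with a probe on both arrays) and 20 above, and the median was 0.09. This median was 0.05 under quantile normalization and 0.03 under normexp background correction. TAF15, an RNA-binding protein that also takes part in transcription, was the only one past 2-fold. Its only probe (chromosome 17, 34173994 to 34174053) had signals of 2820 with NC and 4641 after si-THOC2, a log2 difference of 1.03 (technical SD 0.05, software's SD 0.20). TAF15 thus passed 2-fold by less than either error. Of the 50 probes of this list on both arrays 1 was higher by 2-fold, beside 0.829% of all such probes. HNRNPK, needed to form paraspeckles, was the lowest at -0.11, with 4054 and 2742 at one probe (-0.25) and 3064 and 2530 at the other (0.03).

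Among nuclear speckle proteins, the compartment of MALAT1, 17 of 18 were measured, the median was 0.07 and none passed 2-fold. Of the 17, 6 were below 0 (35.3%, beside 43.2% of all genes with a probe on both arrays). BCLAF1, a splicing-associated protein, was lowest at -0.39, with signals of 586 and 313 at one probe and 401 and 283 at the other. U2AF1, which recognizes the 3′ splice site, was highest at 0.26, with 10079 and 9582 at its brighter probe. Both BCLAF1 probes were lower and both U2AF1 probes were above 0.

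Of the 8 genes for RNA retention by inverted repeats and for regulators of paraspeckles, 3 were below 0 (37.5%, beside the same 43.2%) and the median was 0.03. ADARB1, an RNA-editing enzyme, was lowest at -0.19, and CARM1, a methyltransferase that acts on NONO, was highest at 0.42, with signals of 5271 and 5685. None of the 8 passed 2-fold.

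Of 13 genes for nuclear RNA turnover and for processing of noncoding RNA ends, 12 were measured, 6 lay below 0, and the median was -0.01. PABPN1, a nuclear poly(A)-binding protein, was lowest at -0.23 (6441 and 4425), and POP1, a subunit of RNase P and RNase MRP, was highest at 0.40 (1129 and 1202). All 9 partners of MATR3 were measured, and 1 was below 0 (11.1%, beside 43.2% of all genes with a probe on both arrays), namely HNRNPL at -0.02 (1525 and 1211). RAVER1 was highest at 0.23. The median was 0.16, though it was 0.09 under quantile normalization, 0.08 under lowess centring and 0.07 under normexp, so its size depended on the scaling. None of these genes passed 2-fold either.

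**Figure D4:**
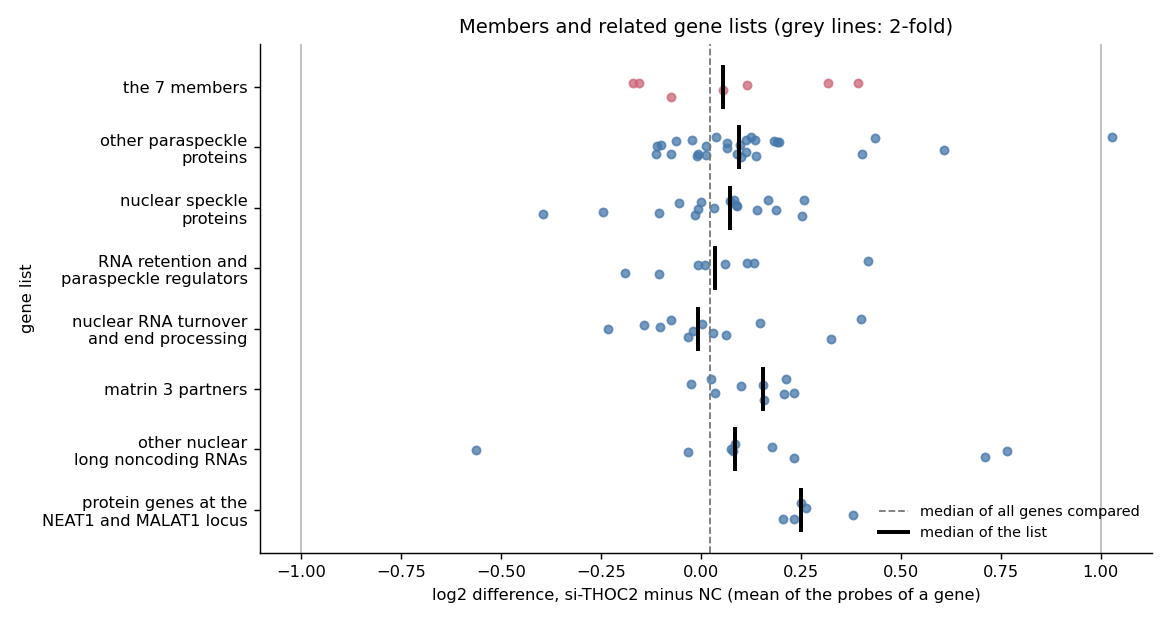
Log2 difference (si-THOC2 minus NC, mean of the probes of a gene) of each measured gene in the members and in 7 related lists, with a black line for the median of a list, a dashed line for the median of all genes compared (0.02) and grey lines at 2-fold. TAF15 at 1.03 is the only gene past 2-fold, and the 5 protein genes at the NEAT1 and MALAT1 locus all lie above 0.

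**Figure D5:**
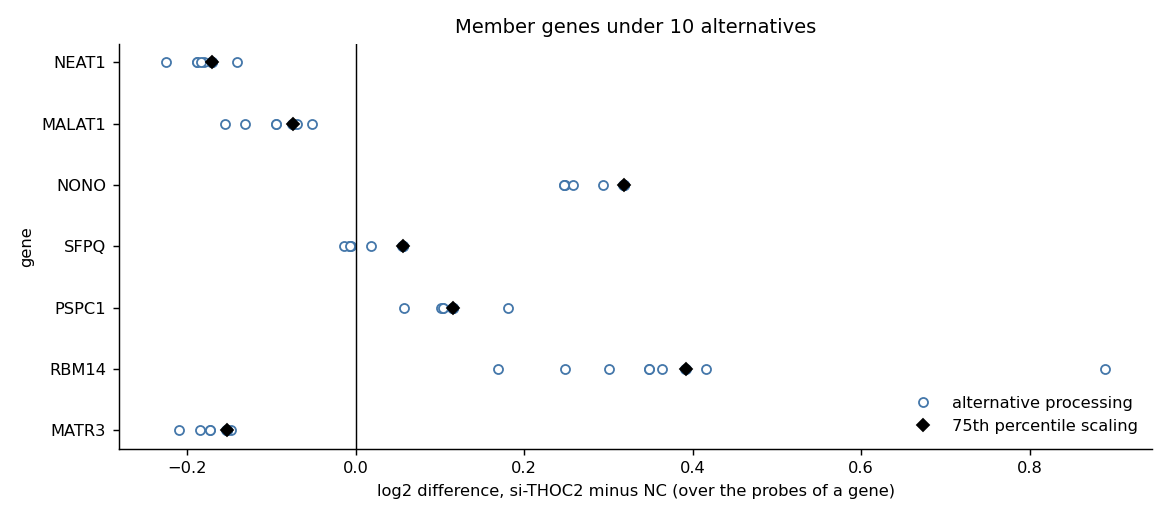
Log2 difference (si-THOC2 minus NC) of each member gene under 75th percentile scaling (black diamonds) and under 10 alternatives (open circles). NEAT1, MALAT1 and MATR3 stay below 0, NONO, PSPC1 and RBM14 stay above 0, and SFPQ lies on both sides.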

How the data were processed

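Total RNA (500 ng per sample, per the labels) was hybridized to 1-colour Agilent SurePrint G3 v3 arrays. The scanner output deposited by the authors holds intensity values per spot from Feature Extraction 10.7.1.1 (per the labels), already background-subtracted, with marks for outliers and for signals well above background. Normalized log2 values for each array, which the authors deposited beside it, served as an alternative, and their own table of fold changes was not used. How RNAs were primed is not given in the sources used here.

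Control spots and outlier spots (147 on the NC array and 168 on the si-THOC2 array) were left out and the spots of a probe averaged. Well above background were 42.3% of probes on the NC array and 39.4% on the si-THOC2 array, and the lowest such signals were 14.7 and 15.9. The technical SD was 0.05 at a log2 signal over 8 (244 probes), 0.10 at 6 to 8 (36), 0.17 at 4 to 6 (5) and 0.42 below (15), from 300 repeated probes. The 0.17 thus rests on few probes, whose SDs ran from 0.14 to 0.31. Probes of like signal were those within 0.5 on the log2 scale. Compared probes were averaged for each gene. For a bound, the bright signal was divided by the dim one, or by the lowest signal well above background where that was higher. The number of arrays limits the precision.

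In each list the genes with a probe past 2-fold and the lowest and highest gene were named. Some genes of the lists are not reported here by name. The members and lists were chosen with earlier results of these data known. Alternatives were quantile normalization, median scaling, lowess centring (span 0.3), normexp (offset 50, then quantile normalization), no detection filter, only probes on both arrays, the authors' values, dim signals at their limit, the median of probes, centring by blocks, and a fold of 1.5. The added offset draws the log2 differences of dim probes towards 0, so normexp values do not show background correction alone. For the blocks, the array was cut into a grid of 16 by 8 blocks of spots. The script was tested on simulated data. Python 3.11.15, numpy 2.4.6, pandas 2.3.3, statsmodels 0.14.6, R 4.3.3 and limma 3.58.1 were used.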

Additional observations from a re-analysis of the deposited data

How the results depend on the processing

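No paired analysis was possible because there was 1 array per condition. Of the 17 member probes with a value, 2 changed sign: the fourth MALAT1 probe, between -0.03 and 0.02, and the first NEAT1 probe, at -0.01 under block centring. The median of the member genes was -0.0055 under quantile normalization, -0.0078 under lowess centring, -0.0134 under normexp and -0.0064 with the authors' values. The median of nuclear speckle proteins was 0.0154 under quantile normalization and the authors' values and 0.0221 under lowess centring, and that of matrin 3 partners was 0.0917, 0.0917 and 0.0751 there and 0.068 under normexp. Under normexp the other paraspeckle proteins had 0.0253 and the protein genes at the locus 0.1328, and the latter had 0.1966 under block centring. With no detection filter, RNA turnover genes were at -0.0667 and the other nuclear noncoding RNAs at 0.1853, and the latter were at 0.1553 with the median of probes. Without that filter 1 member probe was higher by 2-fold (the RBM14 probe below background on both arrays), beside 3127 of all 58199 probes. With the filter, 1 passed a fold of 1.5 (the RBM14 probe well above background on the si-THOC2 array only). The share of all probes past 1.5-fold was not computed, so these counts say little about the members. The cause of these shifts was not tested.

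Over all compared probes, 844 lower and 743 higher became 39 and 60 under normexp, 225 and 476 with dim signals at their limit, 81 and 184 on both arrays and 1929 and 3127 with no detection filter, and the share of lower calls went from 53.2% to 42.6% under lowess centring. No scaling moved the median of all probes by over 0.1. Low signal over background limits the third MALAT1 probe and the dim RBM14 probes.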

Other observations

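Other long noncoding RNAs known to act in the nucleus gave mixed values. Of 12, 9 were measured, 2 were below 0 (22.2%, beside 43.2% of all genes with a probe on both arrays) and the median log2 difference was 0.09. TUG1, a broadly expressed long noncoding RNA on chromosome 22, was the lowest gene of its list at -0.40 over the probes on both arrays. Its signals with NC and si-THOC2 were 43.5 and 31.0, 266 and 192, 1128 and 698, and 148 and 64.5 along the gene, log2 differences of -0.18, -0.16, -0.38 and -0.89. Its remaining probes went from 26.9 to 12.5 and from 28.5 to 11.8, were well above background on the NC array only, and were at least 1.37-fold and 1.45-fold lower. All 6 TUG1 probes thus lay on the same side of 0, and the drop was larger at the 4th probe than at those before it.

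MIAT, a nuclear noncoding RNA known from neurons and heart, was highest at 0.76 from 1 dim probe (22.4 and 30.8), with its other probes not well above background on either array. MEG3, an imprinted noncoding RNA, had 1 probe past 2-fold in each direction, each well above background on 1 array only and therefore only at least 1.64-fold higher (2.96 and 19.4) and at least 1.15-fold lower (22.6 and 8.57). At its well measured probe MEG3 had 181 and 168, a log2 difference of 0.20. The abundant nuclear RNA RN7SK, which holds the transcription elongation factor P-TEFb inactive, had 41398 and 35430, a log2 difference of 0.09 (technical SD 0.05), and RMRP, the RNA of RNase MRP, had 1926 and 1828 (0.23).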
